A study of Mus musculus with 6 samples.

Results

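Transcripts of 5 genes of Golgi and vesicle trafficking, Cog4, Sec23b, Tfg, Dennd4c and Rabgap1, were described in mouse testis after 8 weeks on normal or high-fat food. Members were all lines of the authors' deposited comparison table with 1 of these symbols, or with a locus identifier of such a line or of the Tfg locus. This gave 8 transcripts among the 831 listed. Of the 8, 5 are annotated transcripts and 3 are assemblies from the study's own reads, and 0 were removed by a filter on low values. Tfg entered by its locus identifier alone, through 2 assembled transcripts that overlap no other GENCODE gene on their strand.

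The libraries came from testis of C57BL/6 mice, 3 from normal food (numbers 7, 8 and 9) and 3 from high-fat food (numbers 10, 11 and 12), the latter called diet-induced obese in the series' design. The labels used here state neither age nor body weight, nor whether libraries stem from separate animals, so the spread between libraries may be partly technical. Listed transcripts summed to between 362790 and 490603 estimated counts per library, a part of its depth. No pair of libraries of 1 diet agreed within sampling noise (chi-square per degree of freedom between 227 and 320 over the listed transcripts). Of 31 marker genes of germ cells, testis somatic cells, epididymis and blood, 0 had a listed annotated transcript and 2, both germ cell markers, had an assembled one, higher after high-fat food. Of all 55341 annotated genes, 404 (0.730%) had a listed annotated transcript and 912 (1.65%) one of either kind. The levels of unlisted transcripts were not analysed here, so the tissue label was not checked further. In whole testis, a change in the number of cells of a type and a change of RNA per cell cannot be told apart.

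Secretory proteins leave the endoplasmic reticulum in vesicles with a COPII coat and then pass through the Golgi, where tethering complexes catch returning vesicles and Rab GTPases give each membrane its identity. Sec23b encodes a subunit of the inner COPII coat, and Tfg a scaffold that gathers COPII vesicles at exit sites. Cog4 encodes a subunit of the conserved oligomeric Golgi (COG) tethering complex. Dennd4c encodes an activator of Rab10, and Rabgap1 a TBC domain protein that switches Rab GTPases off. In the testis this route also supplies the acrosome, which round spermatids build from Golgi vesicles.

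Every listed transcript had been chosen by the authors for its difference between these same libraries, so the differences between diets below are descriptions without a test. In the authors' deposited table the 8 transcripts passed an adjusted p under 0.05, as did 0.868% of the 95751 transcripts that the authors tested, of which 6 were higher and 2 lower after high-fat food. Higher transcripts made up 0.48% and lower ones 0.387% of those tested. Nothing can be read from these counts, because membership required the call. Among all listed transcripts 55.4% were higher, and among the annotated ones 54.3%. The authors' adjusted p ran from 1.45e-08 for Rabgap1-201 to 0.0490 for Rabgap1-203, the member just inside the threshold, and transcripts just outside it are not in the table. For all 8 the libraries of the diets did not overlap, which held for 91.3% of the listed transcripts. The median log2 fold change without regard to sign was 2.22 over the 8 and 5.30 over all 831 in the authors' deposited table. None of the 8 was at 0 in a diet, while 250 of the 831 were.

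The places where the listed models begin and splice are shown first, because they tell which models the estimated counts were assigned to. At Rabgap1 the 2 listed transcripts begin at separate annotated starts 8982 bases apart on chromosome 2. Below are the 250 bases before the RefSeq start nearest to each, on GRCm38.p6, plus strand, chr2:37443035-37443284 for Rabgap1-201 and chr2:37452004-37452253 for Rabgap1-203. The RefSeq start used for Rabgap1-203 lies 13 bases upstream of the listed one. Capitals mark a CCAAT box in the first window and the E-box CACGTG in the second.
Rabgap1-201: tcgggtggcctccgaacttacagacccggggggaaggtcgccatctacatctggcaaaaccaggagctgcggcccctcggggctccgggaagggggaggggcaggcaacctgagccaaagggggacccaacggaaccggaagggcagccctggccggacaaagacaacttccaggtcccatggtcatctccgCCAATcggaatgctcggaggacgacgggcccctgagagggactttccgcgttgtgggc
Rabgap1-203: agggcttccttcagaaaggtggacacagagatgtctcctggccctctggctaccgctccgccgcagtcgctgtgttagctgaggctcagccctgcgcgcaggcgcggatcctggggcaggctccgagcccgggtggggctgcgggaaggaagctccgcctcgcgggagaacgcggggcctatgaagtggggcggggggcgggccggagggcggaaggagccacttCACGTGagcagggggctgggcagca

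For Sec23b the window shown, chr2:144555979-144556228 on the plus strand, lies before a RefSeq start 27 bases from the start of Sec23b-201. The assembled Sec23b transcript begins 63 bases further downstream than Sec23b-201, so no RefSeq start lies within 50 bases of it. The CCAAT box of the window, in capitals, reads on the opposite strand.
Sec23b: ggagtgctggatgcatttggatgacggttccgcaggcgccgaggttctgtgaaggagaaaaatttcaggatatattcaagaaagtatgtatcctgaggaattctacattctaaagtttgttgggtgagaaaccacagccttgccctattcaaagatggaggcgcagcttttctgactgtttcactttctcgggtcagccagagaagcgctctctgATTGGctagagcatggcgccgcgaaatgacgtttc

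RefSeq held 8 windows for the 5 genes, of which 5 begin within 50 bases of a listed start. Searched on both strands, CCAAT was found in 3 of these 5 windows (Rabgap1-201, Sec23b and Cog4) and in 33.8% of all 32851 mouse windows of this length. CACGTG was found in 1 of the 5 and in 6.02% of all, and TATAAA in 1, that of Cog4, and in 12.4%. The Golgi stress element ACGTGGC and the core of the unfolded protein response element, TGACGTG, were found in 0 of the 5, and in 2.02% and 1.65% of all windows. ACGTGGC and TGACGTG can each share letters with CACGTG. These matches describe letters only.

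The listed Dennd4c model, Dennd4c-204, splices out 1 coding exon of the longest annotated one, Dennd4c-202. That exon has 147 bases, or 49 codons, at chr4:86813782-86813928 on the plus strand. Dennd4c-204 also lacks the noncoding first exon of Dennd4c-202, and its annotated last exon is shorter. The junction of exons 18 and 19 of Dennd4c-204 is given with 30 bases of each exon, the second in capitals, and then the same stretch of Dennd4c-202 with its additional exon 20 in capitals, both from GENCODE M21 transcripts.
Dennd4c-204: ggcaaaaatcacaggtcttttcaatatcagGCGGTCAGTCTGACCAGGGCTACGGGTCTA
Dennd4c-202: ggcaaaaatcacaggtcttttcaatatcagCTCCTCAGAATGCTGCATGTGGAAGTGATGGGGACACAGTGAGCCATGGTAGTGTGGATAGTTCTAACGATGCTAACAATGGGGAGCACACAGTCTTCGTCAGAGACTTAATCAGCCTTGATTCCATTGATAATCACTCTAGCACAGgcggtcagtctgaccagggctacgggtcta

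**Figure D1:**
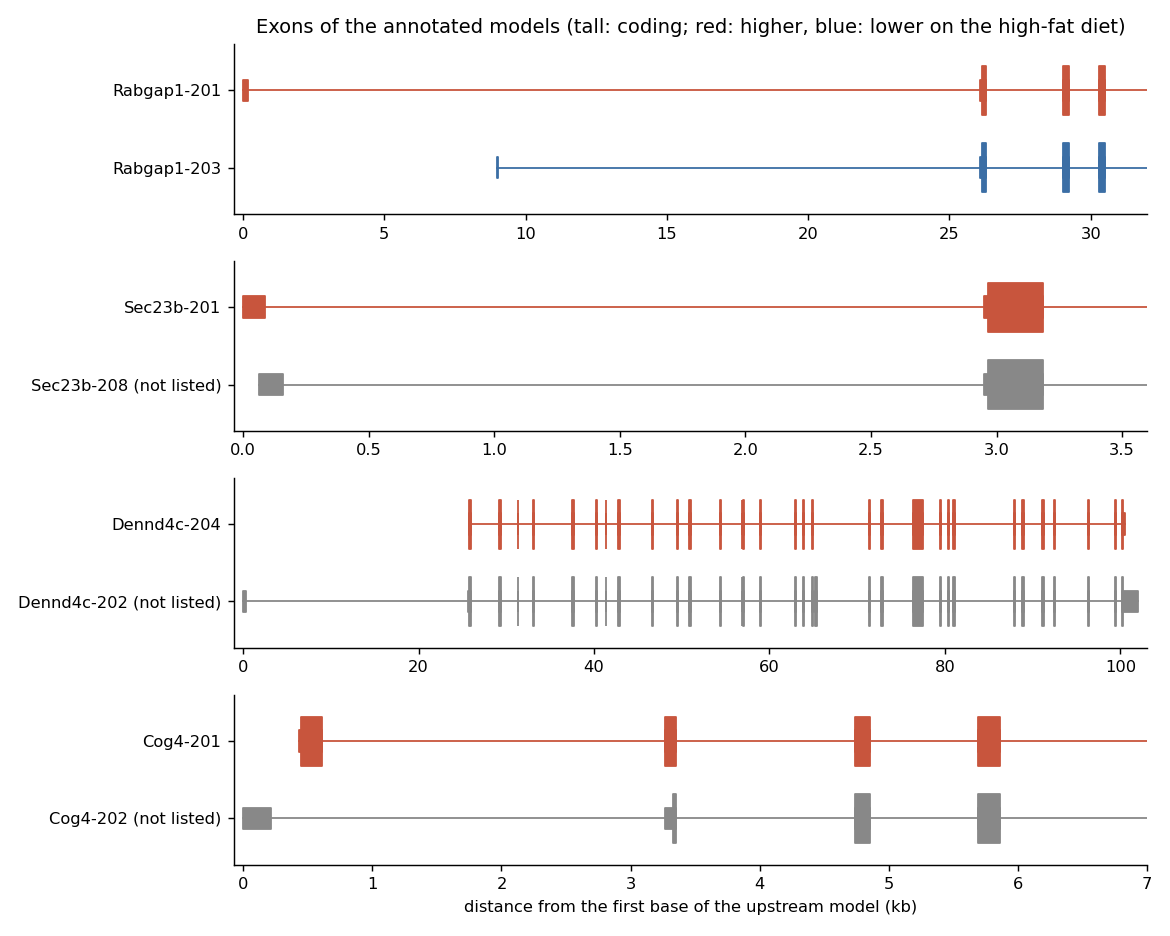
Exons of listed annotated models (red, higher; blue, lower on the high-fat diet) and of an unlisted annotated model (grey) against the distance in kb from the first base of the upstream model, with coding parts tall. Only the upstream end is drawn for Rabgap1, Sec23b and Cog4. In the part drawn, the Rabgap1 and Sec23b models differ in a first exon before the start codon. Sec23b-208 has only 5 exons in all. Dennd4c-204 lacks 1 coding exon of 147 bases and the noncoding first exon of Dennd4c-202, and Cog4-201 begins its coding part in the first exon.

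Levels below are normalized counts, the deposited estimated counts divided by the authors' size factors, given for each library in order of its number. A log2 ratio is that of the diet means after adding 1 normalized count, high-fat over normal, with its standard error (SE) from the spread of the 3 libraries of each diet. Per kb of transcript, Cog4-201 had the highest level of the 8 on both diets, at 463 ± 86.8 (SD, n = 3) and 1131 ± 198 normalized counts per kb. On the normal diet Rabgap1-203 came second at 235 ± 26.4 per kb, ahead of Rabgap1-201 at 181 ± 12.3. Next came the assembled Sec23b transcript at 154 ± 62.7 and Sec23b-201 at 115 ± 25.9. Rabgap1-201 and the assembled Sec23b transcript overlapped in level, as did the 2 Sec23b transcripts and the 2 Tfg transcripts. Dennd4c-204 at 53.4 ± 10.2 and the Tfg transcripts at 21.1 ± 7.17 and 16.6 ± 7.85 were the lowest. On the high-fat diet Sec23b-201 (444 ± 81.7 per kb) was second, and Rabgap1-203 (71.6 ± 35.4) and the assembled Sec23b transcript (14.4 ± 4.44) were last. There, the neighbours in the order from Sec23b-201 down to Rabgap1-203 overlapped in level.

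**Figure D2:**
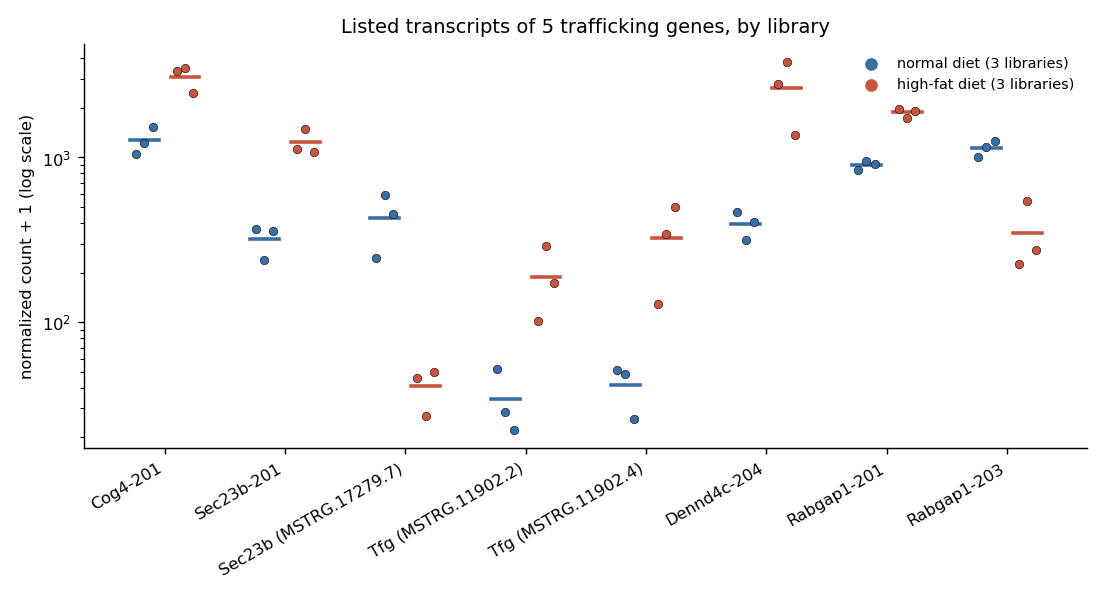
Normalized counts plus 1 (log axis) of the 8 listed transcripts in the 3 normal-diet libraries (blue) and the 3 high-fat libraries (red), where points are libraries and bars diet means. The red points lie above the blue ones for 6 transcripts and below them for the assembled Sec23b transcript and Rabgap1-203.

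The COPII coat gene Sec23b had 2 listed transcripts that went opposite ways. The canonical Sec23b-201, ENSMUST00000028916 at chr2:144556256-144590749, had 367, 237 and 356 normalized counts on normal food and 1121, 1495 and 1085 on the high-fat diet. Its lowest high-fat library was 2.96-fold above its highest normal-diet library. The diet means were 320 ± 72.0 and 1233 ± 227 (SD, n = 3), 3.86-fold higher on the high-fat diet, a log2 ratio of 1.94 ± 0.24 (SE). The assembled transcript MSTRG.17279.7, at chr2:144556319-144590749, had 244, 591 and 451 normalized counts on normal food and 45.1, 26.03 and 49.2 on the high-fat diet. It was 10.7-fold lower, a log2 ratio of -3.38 ± 0.42.

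Both Sec23b models have 20 exons and end at the same base. The assembled one begins 63 bases downstream, at the first base of the annotated but unlisted Sec23b-208, a shorter model of 5 exons. The exons of the assembled transcript are not given, only its length of 2787 bases. The first exon of Sec23b-208, of 95 bases, joined to exons 2 onward of Sec23b-201 also comes to 2787 bases, against 2779 with the first exon of Sec23b-201, of 87 bases. In that reading the 2 listed transcripts would differ in the first exon alone, with donor sites 71 bases apart and a shared start codon in exon 2. Only reads that touch the first exon could then separate the 2 estimated counts. Their opposite directions and the shares below would rest on those reads. How reads were divided between the models was not tested.

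Sec23b-201 made up 60.1%, 28.6% and 44.1% of the summed Sec23b transcripts in libraries 7, 8 and 9, against 96.1%, 98.3% and 95.7% in libraries 10, 11 and 12. Its share was 44.3% ± 15.7 and 96.7% ± 1.40 (SD, n = 3), 52.4 ± 9.12 percentage points (SE) higher on the high-fat diet. The direction of this change was fixed in advance, since the 2 transcripts were listed in opposite directions without overlap. The sum of both was 610, 828 and 806 normalized counts on normal food and 1166, 1521 and 1134 on the high-fat diet, 1.70-fold higher and without overlap between the diets. The log2 ratio of the sum, 0.77 ± 0.19, became 0.22 with median-of-ratios size factors computed on the listed transcripts. A sum covers listed transcripts only and is not the total output of a gene.

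Both listed transcripts of Tfg, the exit site scaffold, had low levels on normal food and were higher on the high-fat diet. MSTRG.11902.4, at chr16:56690332-56717450 on the minus strand, had 50.0, 47.6 and 24.9 normalized counts on normal food and 129, 340 and 501 on the high-fat diet. It was 7.92-fold higher, a log2 ratio of 2.95 ± 0.55. MSTRG.11902.2, which ends at the same base and begins 444 bases downstream, had 51.0, 27.6 and 21.2 normalized counts and then 101, 288 and 172, 5.63-fold higher with a log2 ratio of 2.46 ± 0.57.

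High-fat library 10 was the lowest of its diet for both Tfg transcripts, and still stood 2.58-fold and 1.98-fold above the highest normal-diet library. MSTRG.11902.4 shares its outer ends and its 8 exons in number with the annotated Tfg-201 and is 12 bases shorter, while MSTRG.11902.2 is 57 bases longer than Tfg-201. Tfg-201 itself is not listed, and its level was not analysed here, so the level of the whole gene is not known. The share of MSTRG.11902.4 in the Tfg sum was 55.6% ± 7.04 on normal food and 61.5% ± 11.2 on the high-fat diet. That difference, 5.92 ± 7.64 percentage points (SE), was smaller than the spread between libraries, and without high-fat library 12 it was -0.53 points.

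Cog4, the COG tether subunit, had 1 listed transcript, the canonical Cog4-201, ENSMUST00000034203 at chr8:110847034-110882227 on the plus strand. It had 1054, 1224 and 1523 normalized counts on normal food and 3333, 3476 and 2477 on the high-fat diet. The lowest high-fat library stood 1.63-fold above the highest normal-diet library. The means were 1267 ± 238 and 3095 ± 541, a log2 ratio of 1.29 ± 0.21. GENCODE M21 has 14 Cog4 transcripts, 5 of them protein-coding. Cog4-201 begins 434 bases downstream of Cog4-202 and carries its start codon in exon 1, whereas that of Cog4-202 lies in exon 2, so that Cog4-201 encodes 73 more codons. The other 13 are not listed, and their levels were not analysed here.

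Dennd4c, the Rab10 activator, had the canonical Dennd4c-204 listed, ENSMUST00000142837. It had 466, 316 and 405 normalized counts on normal food and 2781, 3779 and 1370 on the high-fat diet. The high-fat libraries spread widely, with a coefficient of variation of 45.8%, and the lowest of them was still 2.94-fold above the highest normal-diet library. The means were 396 ± 75.4 and 2643 ± 1210, 6.68-fold higher with a log2 ratio of 2.74 ± 0.41.

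The deposited Dennd4c-204 spans chr4:86774255-86850603 on the plus strand. It begins at the first base of the start codon, 25700 bases downstream of the RefSeq start at 86748555, so no promoter window is shown for it. Its deposited end lies 1548 bases beyond the annotated end, at the end of Dennd4c-202, and its deposited length of 7418 bases is longer by the same 1548 bases. The authors' model thus joined the splicing of Dennd4c-204 to the longer last exon. It then differs from Dennd4c-202 at the upstream end and in the skipped exon, so only reads there can separate these models. The levels of Dennd4c-202 and the other unlisted models were not analysed here, and how reads were divided was not tested. The difference above is one of estimated counts of this model, not of the whole gene.

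Rabgap1, the Rab inactivator, had 2 listed annotated transcripts of opposite direction. The canonical Rabgap1-201, ENSMUST00000061179 at chr2:37443285-37566454, had 835, 956 and 912 normalized counts on normal food and 1961, 1743 and 1920 on the high-fat diet. Its libraries were even within each diet, with a coefficient of variation of 6.79% and 6.17%. The median over the 481 listed transcripts with a mean of at least 100 was 44.5% and 44.9%. Nothing is read from that contrast, since a transcript with a small fold change is more readily listed where its libraries are even. Rabgap1-201 was 2.08-fold higher, a log2 ratio of 1.06 ± 0.08. Rabgap1-203, ENSMUST00000112920 at chr2:37452267-37566454, had 1009, 1150 and 1265 normalized counts and then 225, 543 and 273, 3.29-fold lower with a log2 ratio of -1.72 ± 0.42.

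Both Rabgap1 transcripts have 26 exons, of which 24 are identical in GENCODE M21. They differ in the first exon, of 172 bases in Rabgap1-201 and 35 bases in Rabgap1-203, and by 17 bases at the annotated 3′ end, where the deposited models end together. The start codon lies in exon 2 at 37469427 in both, and their coding exons are identical, 3192 bases in all. Between the deposited models, only reads that touch the first exon can thus separate the estimated counts. The opposite directions and the shares below rest on those reads. How reads were divided between the models was not tested. The genes Gpr21 and Gm17893 lie on the same strand within the Rabgap1 span, and their part in these counts was not tested.

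Rabgap1-201 made up 45.3%, 45.4% and 41.9% of the Rabgap1 sum in libraries 7, 8 and 9, against 89.7%, 76.3% and 87.5% in libraries 10, 11 and 12. Its share was above the normal-diet range in each high-fat library. That direction was fixed in advance, since the 2 transcripts were listed in opposite directions without overlap. The mean share was 44.2% ± 1.98 on normal food and 84.5% ± 7.23 after high-fat food (SD, n = 3), a difference of 40.3 ± 4.33 percentage points (SE). The sum was 1844, 2105 and 2178 normalized counts on normal food and 2186, 2286 and 2193 on the high-fat diet, so that the highest normal-diet and the lowest high-fat library were almost level. Its log2 ratio was 0.12 ± 0.07 and turned to -0.42 with median-of-ratios size factors and to -0.13 with scaling to the total of the listed counts, so no direction is given for the sum.

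**Figure D3:**
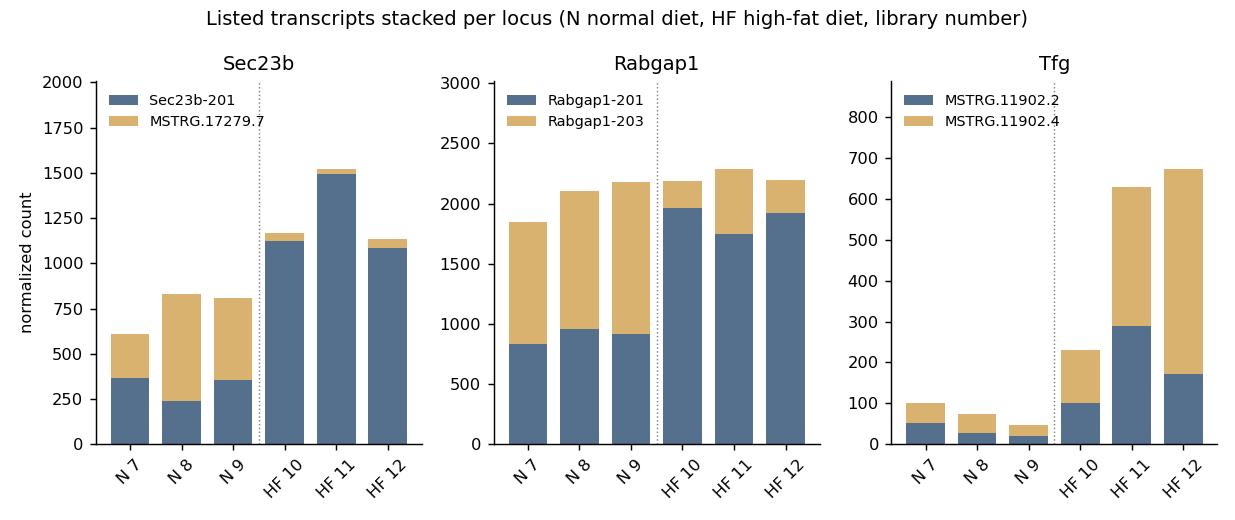
Normalized counts of the listed transcripts of Sec23b, Rabgap1 and Tfg, stacked in each library (N, normal diet; HF, high-fat diet; with the library number). At Rabgap1 the height stays between 1844 and 2286 while the lower, blue part grows, and at Sec23b and Tfg the height is greater in the high-fat libraries.

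Around these 5 genes, lists of COG, COPII, COPI, DENN, TBC, Rab, golgin, SNARE, TRAPP, exocyst and GARP genes held 196 annotated genes. Of the 191 that are not among the 5, 7 had a listed annotated transcript, 5 higher and 2 lower. That is 3.66%, beside 0.730% of all 55341 annotated genes, many of which may not be expressed in testis; the lists were drawn up with earlier results known, so nothing is read from the difference. No annotated transcript of the COPI, Rab, Golgi SNARE, exocyst or GARP genes was listed.

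Cog8, a second COG subunit, had the noncanonical ENSMUST00000034391 at 12.8, 23.8 and 36.9 normalized counts on normal food and 63.9, 608 and 383 on the high-fat diet. It overlaps the gene Pdf on its strand, and high-fat library 10 was close to the normal-diet range. The remaining 6 COG subunits had no listed transcript. Trappc8, a TRAPP tether subunit, had a low-abundance noncanonical transcript at 11.7, 13.3 and 11.1 and then 44.0, 36.0 and 44.8 normalized counts, 3.46-fold higher.

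Among other DENN domain genes, a transcript of Dennd1b, a Rab35 activator, annotated as noncoding, was 3.81-fold higher, from 50.9 ± 3.91 to 194 ± 23.1 normalized counts. A nonsense-mediated decay transcript of Sbf1, a myotubularin-related DENN protein, was at 33.0, 21.9 and 16.6 and then at 959, 1278 and 773. A nonsense-mediated decay transcript of Dennd4b, the paralog of Dennd4c, went the other way, from 33.0, 72.3 and 38.7 to 0 in the 3 high-fat libraries. A transcript of the same class of the TBC gene Tbc1d19 was 11.5-fold lower, at 167, 62.8 and 309 and then 19.8, 5.01 and 21.96. A noncoding transcript of Cux1, whose locus also encodes a golgin, had 8.02 ± 4.55 and 106 ± 69.7 normalized counts. The transcripts of Dennd1b, Sbf1 and Dennd4b overlap a further gene each on their strand. The 7 transcripts are all noncanonical, unlike Cog4-201, Sec23b-201, Dennd4c-204 and Rabgap1-201.

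**Figure D4:**
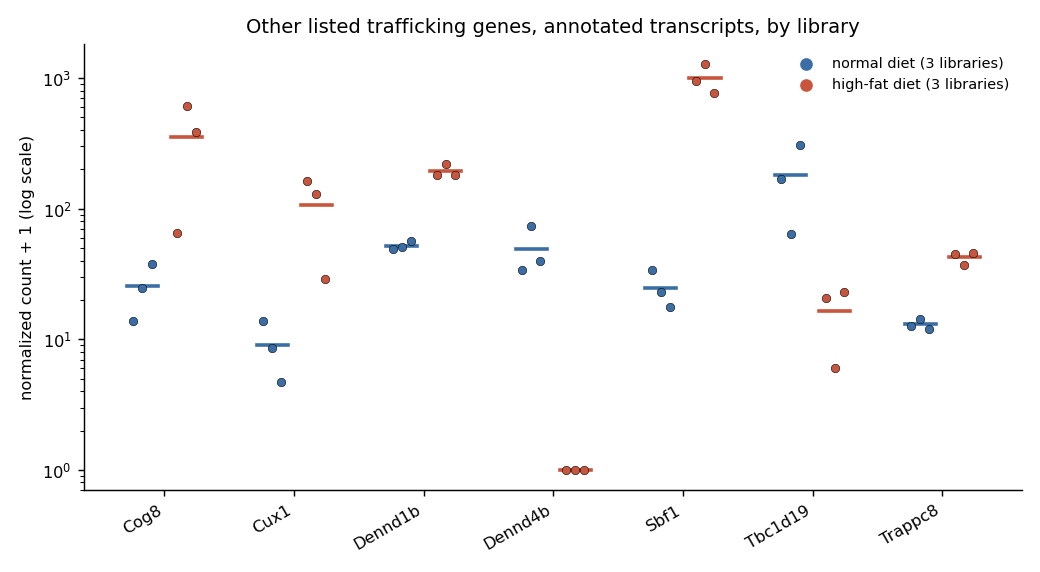
Normalized counts plus 1 (log axis) of the listed annotated transcripts of 7 other trafficking genes, with points for libraries and bars for diet means. Dennd4b and Tbc1d19 are lower and the other 5 higher on the high-fat diet, and Dennd4b is at 0 in the 3 high-fat libraries.

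Assembled transcripts over further list genes are less certain in name. One over Sec23ip, a partner of the Sec23 coat subunits, was at 0 on normal food and at 5657, 1483 and 1728 normalized counts after high-fat food. One over the COPI subunit gene Copa, which also overlaps Gm38164, was at 71.3, 5847 and 8919 and then at 85.9, 101 and 137. The diets overlapped there, since normal-diet library 7 was at the high-fat level. One over Arfgap1, which encodes an Arf1 inactivator of the COPI cycle, was at 4248, 2153 and 2038 on normal food and at 0 in the 3 high-fat libraries, and it also overlaps BX649560.1 and Col20a1.

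One over Rabgap1l, the paralog of Rabgap1, spans 10 annotated genes and was at 2.13, 2.86 and 5.53 and then at 303, 435 and 22.8. One over the TBC gene Sgsm3 was at 0 on normal food and at 3387, 1733 and 0 after high-fat food. One over the Golgi SNARE gene Stx5a, which also overlaps Nxf1 and Mir6992, was at 0 on normal food and at 0, 996 and 3985 after high-fat food. For both of these 1 high-fat library was level with normal food. With assembled transcripts added by overlap, 18 of the 196 genes were listed, 12 higher, 4 lower and 2 with both directions. That is 9.18%, beside 1.65% of all annotated genes, and again nothing is read from the difference.

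The authors' deposited enrichment tables placed Cog4 and Sec23b in the set Golgi vesicle transport, with 13 members, p = 0.000488 and q = 0.119. Rabgap1 and Dennd4c were not among its members, and the Tfg transcripts carried no human symbol. The authors' test used called genes and not libraries as its units. Of the 13 members of this set 12 were higher, beside 55.4% of all listed transcripts. Nothing is read from that count, because each member had been called. The 1 lower member, a transcript of the ankyrin gene Ank2, was at 27.7, 8.57 and 11.98 on normal food and at 0 in the 3 high-fat libraries. Cux1, Cog8 and Trappc8, described above, were members too. Of the 13 transcripts, 3 are canonical, those of Cog4, Sec23b and the vesicle motor Myo5a. The 2 of Cog4 and Sec23b alone had a mean of at least 1000 normalized counts on the high-fat diet, with Pef1 just below at 896. Myo5a was at 20.2, 9.52 and 15.7 and then at 1229, 729 and 22.8, with high-fat library 12 near the normal-diet level. Pef1, which takes part in enlarging COPII coats, was at 46.8, 210 and 172 and then at 1017, 678 and 993, 6.26-fold higher. In the authors' deposited tables Sec23b stood in 7 gene ontology sets and Rabgap1 in 5, with q between 0.119 and 0.792, and Dennd4c in 2 with q = 0.328.

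The annotated transcripts most like each leading annotated transcript were ranked by Pearson's r of log2 values across the 6 libraries. Since every listed transcript differs between the diets, r is high by the choice of lines: 143 of 432 transcripts had r above 0.9 with Cog4-201, and 186 of 431 with Rabgap1-201. The nearest to Cog4-201 were those of 1700094J05Rik (r = 0.990), Bcs1l (r = 0.989) and Pcbd2 (r = 0.988). Nearest to Sec23b-201 were Lsm10 (r = 0.993), Chn1 (r = 0.991) and N4bp2 (r = 0.989). Nearest to Dennd4c-204 were Lypd5 (r = 0.993), Csad (r = 0.991) and Zfp689 (r = 0.991). Rabgap1-201 was nearest to Slc25a45 (r = 0.996), then to the Trappc8 transcript described above (r = 0.995) and Pdlim5 (r = 0.992). On normal food the transcripts of Csad, Zfp689 and Pdlim5 were at 0 in every library, and those of Bcs1l and Pcbd2 at 1.84 normalized counts or less.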

How the data were processed

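The comparison table holds 1 line per transcript with whole-number estimated counts for each library, per the file headers. The submitters' processing notes list Trimmomatic, HISAT2, StringTie, DESeq and the build GRCm38, with no version. Libraries were strand-specific by the dUTP method, per the labels' protocols. The deposited scaled counts, rounded by the authors and per diet averaged by them, were treated as a score. The authors' mean over libraries (a signal) was not used. The deposited p-values, raw and adjusted, the fold (a ratio) and its log2 are the authors' own, as are p and q of the sets.

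Size factors were recovered as counts over scaled counts at counts of at least 5000, and dividing by them gave the deposited scaled values to within 0.724. The number of transcripts tested followed from adjusted over unadjusted p and rank in 730 of 831 lines. Genes were taken from GENCODE M21 (GRCm38) by overlap on the same strand. Python 3.11.15 was used. No test was run, since each line had been chosen on these libraries. Of the genes around the 5, those of the lists with a listed transcript were named, and the 3 transcripts of highest r per leading transcript. Members of the authors' Golgi set and assembled transcripts were named after their values were seen. The members and lists were chosen with earlier results of these data known. Alternatives were other scalings, a pseudocount of 5, medians, counts per length, stricter thresholds and leaving out each library.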

Additional observations from a re-analysis of the deposited data

How the results depend on the processing

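The direction of the 8 transcripts was kept with raw counts, median-of-ratios size factors and listed totals as scaling, with a pseudocount of 5, with medians and without any 1 library. Since the diets overlapped for none of the 8, the pseudocount, medians and leaving out 1 library could not have changed it. Median-of-ratios size factors lowered the log2 ratios of the 8 transcripts and 3 sums by a median of 0.54 and the median over all listed transcripts from 1.40 to 0.87. With them, Cog4-201 had a log2 ratio of 0.74, Sec23b-201 of 1.40 and Rabgap1-201 of 0.53. The Sec23b sum had 0.22 with them, 0.52 with listed totals and 1.94 with annotated transcripts only, which leaves out the assembled one. The Rabgap1 sum had -0.42 and -0.13 with these scalings. Both scalings were computed on transcripts listed for a diet difference, so part of each shift may stem from that choice. Leaving out 1 library gave 0.62 to 0.85 for the Sec23b sum, 0.05 to 0.17 for the Rabgap1 sum and 2.52 to 3.12 for the Tfg sum. The share changes ranged from 44.6 to 60.3 percentage points for Sec23b-201, 37.7 to 44.4 for Rabgap1-201 and -0.53 to 9.77 for MSTRG.11902.4. For Sec23b-201 and Rabgap1-201 the sign of the change was fixed by the listing. Lower genes of the lists numbered 2, and 4 with assembled transcripts added, 1 with the authors' adjusted p under 0.01 and 1 with a mean of at least 50. No paired analysis was possible because the diets share no library number. The depth of whole libraries is unknown, and 3 libraries per diet limit the precision of each mean.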
